A study of Mus musculus with 3 samples.

Results

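Rbx1 and the subunits of cullin-RING ubiquitin ligases that work with it were examined in mast cell progenitors (MCps) with and without p85α. The set comprised 10 genes, Rbx1, Rnf7, Cul1, Cul2, Cul3, Cul4a, Cul4b, Cul5, Skp1a and Skp2, taken as every non-control probe that the array's annotation names for them. These were 24 of 41174 probes, of which 41157 were tested, and all 24 were among the tested. The set was selected on the measured ratio of Rbx1, p85α-/- over WT, which was among the highest on the arrays, and the question was whether its partners had ratios on the same side. The Rbx1 ratio is therefore a description without a test, and its partners are the 9 other genes.

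The 3 two-colour arrays each paired 1 WT culture, labeled with Cy3, with 1 p85α-/- culture, labeled with Cy5, so that n = 3 cultures per genotype. MCps were grown from low density bone marrow cells of WT or p85α-/- mice with IL-3 at 10 ng/mL over 7 days and sorted as positive for both KIT and the IgE receptor. They were then kept for 48 hours with SCF, which activates KIT, at 100 ng/mL. Both genotypes received SCF, no unstimulated culture was analysed here, and the ages and strain of the mice were not given in the sources used here. The cDNA was amplified by PCR before labeling because few cells were sorted. No array had the dyes swapped, so genotype and dye cannot be told apart in any ratio below.

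Cullin-RING ligases attach ubiquitin to proteins and so mark many of them for the proteasome. A cullin is the scaffold. Its one end holds a small RING protein, Rbx1 or Rnf7, that recruits the ubiquitin-carrying E2 enzyme, and its other end holds an adaptor and a substrate receptor. Rbx1 is the usual RING partner of Cul1 to Cul4, and Rnf7 is the usual partner of Cul5. With Cul1, the adaptor Skp1 (named Skp1a on the array) and the F-box receptor Skp2 form the ligase that removes the cell cycle inhibitor p27. Attachment of NEDD8 to the cullin switches the ligase on, and the COP9 signalosome removes NEDD8 again.

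The promoters of both RING genes are shown because these are the RING subunits of the set and the values of Rbx1 and Rnf7 are compared below. Each line gives the 250 bases before the RefSeq start on the gene's strand (GRCm38.p6), for Rbx1 at chr15:81466066-81466315, plus strand, and for Rnf7 at chr9:96478676-96478925, minus strand. Capitals mark GC boxes (GGGCGG, or CCGCCC on the other strand), CCAAT boxes and the cAMP response element TGACGTCA.
Rbx1: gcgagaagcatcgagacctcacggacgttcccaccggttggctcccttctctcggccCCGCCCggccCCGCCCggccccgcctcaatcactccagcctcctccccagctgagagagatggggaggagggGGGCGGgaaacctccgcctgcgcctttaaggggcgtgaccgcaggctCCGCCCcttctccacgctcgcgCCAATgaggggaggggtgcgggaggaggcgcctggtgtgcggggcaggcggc
Rnf7: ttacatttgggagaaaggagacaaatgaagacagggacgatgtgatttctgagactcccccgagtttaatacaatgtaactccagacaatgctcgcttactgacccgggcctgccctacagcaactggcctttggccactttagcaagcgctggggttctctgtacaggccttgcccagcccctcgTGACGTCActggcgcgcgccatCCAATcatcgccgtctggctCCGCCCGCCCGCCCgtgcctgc
The Rbx1 window held 4 GC boxes and 1 CCAAT box, with 72.4% G and C. Rnf7 had 3 GC boxes that overlap each other, 1 CCAAT box and 1 TGACGTCA, with 58.0% G and C. On either strand, GGGCGG was present in 32.7% of 32851 RefSeq windows of this length, CCAAT in 33.8% and TGACGTCA in 1.55%. TGACGTCA was also present in the Skp1 window, and CCAAT in 1 of the Skp2 windows and the Cul4b window. GGGCGG was also present in windows of Cul1, Cul3, Cul4a and Skp2. Across 12 windows of 9 members, the G and C content ranged from 42.8% to 80.0%, against a median of 52.4% over all windows. A match describes letters in a window and is not a measured binding site.

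The quality of the arrays touches every value that follows. Signals were corrected for background, quantile normalized over the 6 channels and put on the log2 scale, and levels below are in that unit. The share of spots well above background ran from 69.4% to 85.3% in the WT channels and from 77.3% to 93.8% in the p85α-/- channels, and 0 spots were saturated. Across 41157 probes the log2 ratios of arrays 1 and 2, 1 and 3, and 2 and 3 correlated at r = 0.01, 0.17 and -0.03. With limma and Benjamini-Hochberg adjustment 0 probes had an adjusted p under 0.05 (lowest 0.763), and 1829 probes passed a looser criterion of at least 1.5-fold with an unadjusted p under 0.05. Of 14 mast cell markers, 13 were well above background on all 3 WT arrays and 14 on all 3 p85α-/- arrays. The 4 probes of Pik3r1, the gene of p85α, had mean log2 ratios of 0.59, -0.58, 0.32 and -0.04, and which of them lie in the deleted part was not given in the sources used here, so they do not check the labels.

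Rbx1, the RING subunit, was many-fold brighter in p85α-/- MCps at a pair of overlapping probes and not at the remaining one. At the brightest probe (A_52_P437230, listed at chromosome 15, 81559600 to 81559659, in a build that the array's annotation does not name) the WT levels on arrays 1, 2 and 3 were 9.74, 7.29 and 8.57 and the p85α-/- levels were 13.76, 11.80 and 13.00. The log2 ratios were 4.02, 4.50 and 4.43, with a mean of 4.32 ± 0.26 (SD, n = 3), or 20.0-fold. The groups did not overlap, and both genotypes were lowest on array 2 and highest on array 1. Before normalization the mean spot signal was 333.5, 50.1 and 278.6 in WT and 43315, 5918 and 19540 in p85α-/-. The local background there was 31 to 34 in WT and 49 to 54 in p85α-/-, so WT on array 2 lay closest to background. Among the 41157 tested probes this mean ratio ranked 5 from the top.

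The second Rbx1 probe (A_51_P326413) shares 23 bases with the first in the listed positions. Its WT levels were 10.06, 7.40 and 8.30, its p85α-/- levels were 13.66, 11.14 and 12.68, and its mean log2 ratio was 3.91 ± 0.42 (SD, n = 3). Its values thus followed the first probe array by array, and it ranked 16. The third probe (A_52_P676076) is listed 1075 bases further along, at 81560735 to 81560794. There the WT levels were 7.91, 6.88 and 7.19 and the p85α-/- levels were 6.74, 6.75 and 6.65. The log2 ratios were -1.17, -0.13 and -0.53, with a mean of -0.61 ± 0.53, and the p85α-/- values lay below all WT values. This probe was well above background on 2 WT arrays and 1 p85α-/- array, and on no array in both channels. With processed signals or the software's log ratio its mean was -2.17. The mean log2 ratios of the Rbx1 probes spanned 4.93, a description because the gene was chosen for its ratio. Which parts of the Rbx1 transcript the probes read was not tested.

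**Figure D1:**
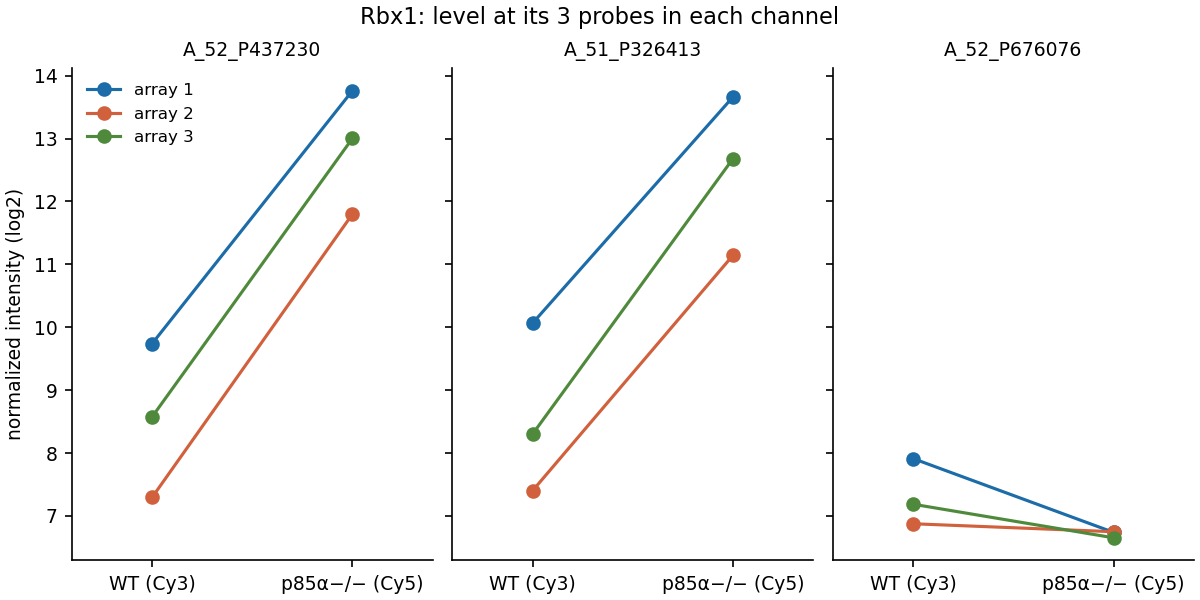
Normalized intensity (log2, vertical axis) of the 3 Rbx1 probes in the WT (Cy3) and p85α-/- (Cy5) channel, each line joining the channels of 1 array. At the overlapping probes on the left and in the middle all 3 lines climb, by 3.6 to 4.50, whereas at the probe on the right all 3 fall, by 1.17, 0.13 and 0.53.

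The partners did not share the Rbx1 ratio. With each gene read at its brightest probe, 6 of the 9 partners had a mean log2 ratio above 0 and 3 below, where 43% of 27951 gene names lay above 0. Their median was 0.17, against -0.07 over all gene names. By limma 0 of the 21 partner probes passed 1.5-fold with an unadjusted p under 0.05, against 4.44% of all probes (2.78% higher and 1.66% lower), and 0 had an adjusted p under 0.05, against 0%. Two-sided adjusted p-values of the partner probes ran from 0.908 to 0.999. The mean log2 ratio over arrays was below 1 in size at every partner probe except the brightest of Cul3. Single arrays went further, and the SD over arrays exceeded the mean at 16 of the 21 probes. Of these probes, 11 were well above background in all 6 channels.

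Rnf7, the second RING subunit, had no common direction. At its brightest probe (A_51_P414166) the WT levels were 8.58, 7.07 and 7.81 and the p85α-/- levels 7.77, 7.22 and 7.20. The log2 ratios of -0.81, 0.15 and -0.61 gave a mean of -0.42 ± 0.51 (limma adjusted p = 0.908). The groups overlapped. The other probe (A_52_P43111) was well above background on 1 array in each genotype and gave ratios of -1.42, 1.65 and 0.11, a mean of 0.12 ± 1.54. On no array did Rnf7 come near the Rbx1 ratio.

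Cul1, the scaffold of the ligases with F-box receptors, had no common direction at its brightest probe. WT levels there (A_51_P335509) were 10.74, 10.59 and 10.20, and p85α-/- levels were 9.90, 10.98 and 10.26. The mean log2 ratio was -0.13 ± 0.64 (limma adjusted p = 0.968), with array 1 below 0 and arrays 2 and 3 above. A second probe (A_52_P664699) had WT levels of 7.38, 7.25 and 7.14 and p85α-/- levels of 7.40, 8.04 and 7.61. Here the groups did not overlap, and the mean log2 ratio was 0.42 ± 0.38 (limma adjusted p = 0.908), with a difference of only 0.02 on array 1. Of all probes, 4.54% had every p85α-/- value above every WT value, and 2 of the 21 partner probes did. The last Cul1 probe (A_52_P149250) was well above background on 1 p85α-/- array and on 0 WT arrays, and no fold is given for it (limma adjusted p = 0.908).

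Cul2, the scaffold that pairs with elongins B and C and the von Hippel-Lindau receptor, gave log2 ratios of 0.28, 1.07 and -0.11 at its brightest probe (A_51_P496448), a mean of 0.41 ± 0.60 (limma adjusted p = 0.908). Its other probe (A_52_P483544) gave 0.27, -0.09 and -1.22, a mean of -0.34 ± 0.78, and was well above background on 1 array in each genotype. The Cul2 probes thus fell on opposite sides of 0, and the brightest was well above background on 2 WT arrays and 3 p85α-/- arrays.

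Cul3, the scaffold for BTB domain receptors such as Keap1, had the highest partner mean, and it rested on 1 culture. The WT levels (A_51_P188655) were 6.83, 6.98 and 8.08 and the p85α-/- levels were 6.91, 11.63 and 6.98. Log2 ratios of 0.09, 4.65 and -1.10 gave a mean of 1.21 ± 3.04 (limma adjusted p = 0.911). The p85α-/- channel of array 2 read 5317 before normalization, against 75.8 and 91.0 on arrays 1 and 3. This probe was well above background on 1 WT array and 2 p85α-/- arrays, and the other Cul3 probe on 3 WT arrays and 1 p85α-/- array. Without array 2 the mean log2 ratio was -0.51, and the other Cul3 probe (A_52_P47645) gave -1.77, 0.51 and -0.65. Cul3 on array 2 was therefore the only partner value of the size seen for Rbx1, and its second probe on that array did not share it. The WT channel behind the 4.65 was not well above background, at 44.6 against a background of 35.

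Cul4a and Cul4b, the scaffolds that bind the adaptor Ddb1, had SDs over the arrays that exceeded the means at their brightest probes. For Cul4a (A_51_P435251) the WT levels were 7.45, 7.27 and 8.12 and the p85α-/- levels 10.16, 7.64 and 7.23, with a mean log2 ratio of 0.73 ± 1.83 (limma adjusted p = 0.915). The high value of array 1 was not seen at a second Cul4a probe (A_52_P36616), which gave -0.22 on that array. Both of these probes were well above background in all 6 channels. At the remaining one (A_52_P258374) the p85α-/- values of 6.62, 6.52 and 6.5 lay below the WT values of 6.76, 6.70 and 7.26. That probe was well above background on 1 WT array and on 0 p85α-/- arrays, and no fold is given for it (limma adjusted p = 0.908). Of the 21 partner probes it was the 1 with all p85α-/- values below WT, against 5.94% of all probes. For Cul4b (A_51_P120948) the WT levels were 7.42, 7.62 and 10.32 and the p85α-/- levels 7.53, 8.75 and 7.75. The WT culture of array 3 was the high one, and the log2 ratios of 0.10, 1.13 and -2.57 gave a mean of -0.45 ± 1.91 (limma adjusted p = 0.950). The other Cul4b probe (A_52_P213181) averaged -0.04 ± 0.54.

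Cul5, the scaffold that works with Rnf7 and receptors with a SOCS box, had the smallest SD of the cullins at its brightest probe. Its brightest probe (A_51_P499802) had WT levels of 8.79, 8.95 and 8.56 and p85α-/- levels of 8.83, 9.29 and 8.56. The mean log2 ratio was 0.13 ± 0.19 (limma adjusted p = 0.950), above 0 on all 3 arrays but by only 0.000651 on array 3. A second probe (A_52_P421399) had WT levels of 7.38, 7.40 and 7.34 and p85α-/- levels of 7.68, 7.57 and 7.73, without overlap, and a mean log2 ratio of 0.29 ± 0.11 (limma adjusted p = 0.908). The remaining Cul5 probes averaged 0.01 ± 0.32 (A_52_P268378) and -0.58 ± 1.77 (A_51_P501107). Ratios of 1.09-fold and 1.22-fold are small beside the 20.0-fold of Rbx1.

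Skp1a, the adaptor between Cul1 and F-box proteins, was read by 1 probe (A_52_P10458). The WT levels were 6.99, 7.27 and 7.56 and the p85α-/- levels 7.07, 8.41 and 6.86, with a mean log2 ratio of 0.17 ± 0.92 (limma adjusted p = 0.967). The groups overlapped, and the arrays differed in sign. The probe was well above background on 2 arrays in each genotype.

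Skp2, the F-box receptor for p27, had the most even ratio of the partners. At its brightest probe (A_51_P204454) the WT levels were 8.48, 8.84 and 8.30 and the p85α-/- levels were 8.95, 9.29 and 8.84. Log2 ratios of 0.47, 0.45 and 0.53 gave a mean of 0.48 ± 0.04, or 1.4-fold (limma adjusted p = 0.908). Each p85α-/- culture was above its WT partner on the same array, although the levels of the groups just overlapped at 8.84. The other Skp2 probe (A_52_P144954), listed 302 bases away, was below 0 on all 3 arrays (-0.40, -0.20 and -0.03, a mean of -0.21 ± 0.19). With median centring both Skp2 probes lay above 0, at 1.01 and 0.20. Cul5 and Skp2 were the 2 of 9 partners above 0 on all 3 arrays, where 11.8% of gene names were, and 0 partners were below 0 on all 3, where 14.2% were.

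**Figure D2:**
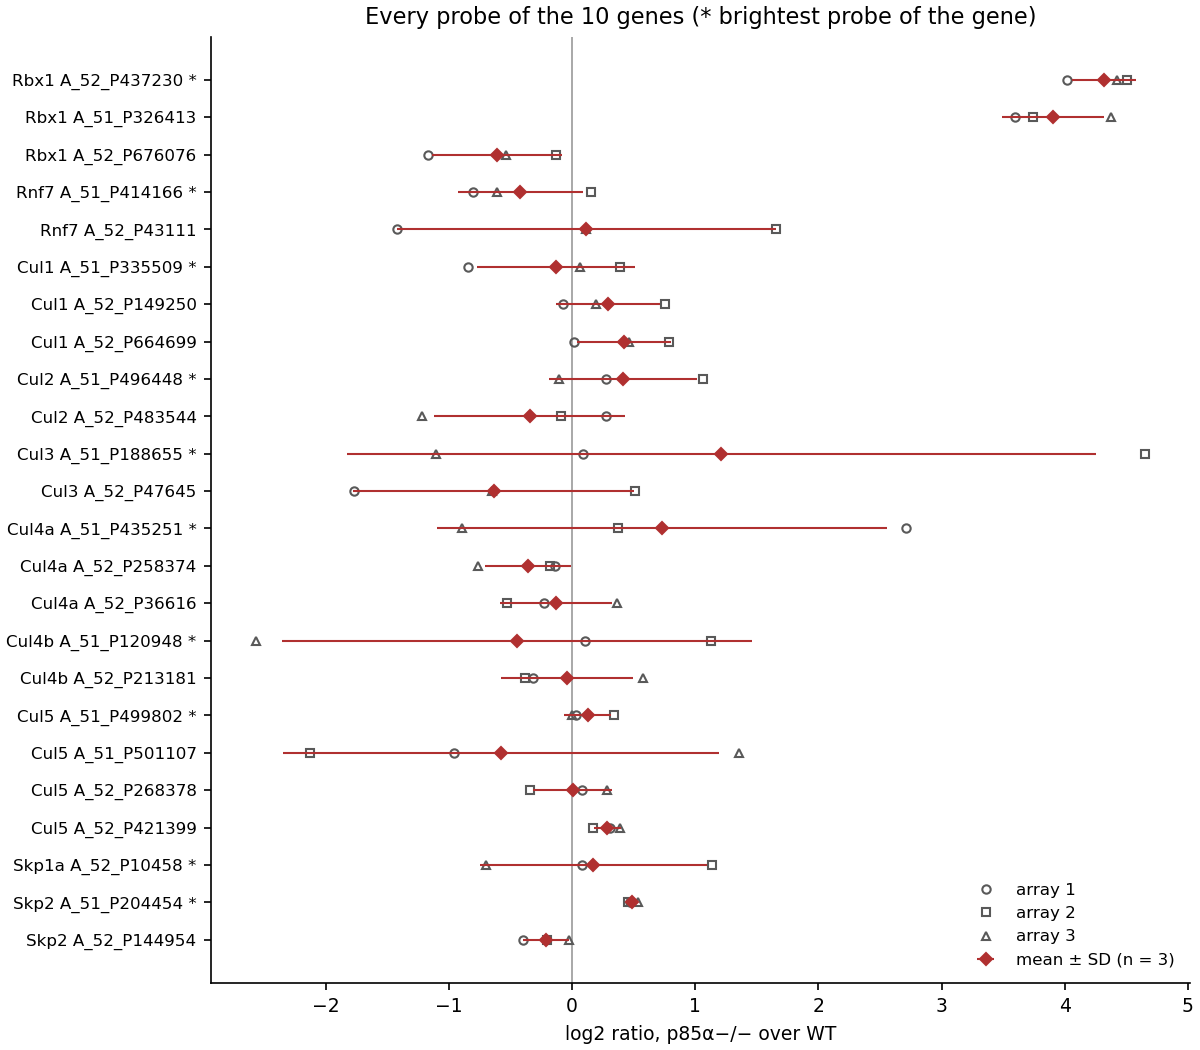
Log2 ratio of p85α-/- over WT (horizontal axis) at each of the 24 probes, with open symbols for the 3 arrays and red diamonds with bars for the mean ± SD (n = 3). Apart from 2 Rbx1 probes near 4, the means lie between -0.64 and 1.21 and most bars cross 0.

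Probes of the same gene often disagreed. Of the 9 members with 2 or more probes, 8 had means on both sides of 0, Rbx1 among them, and Cul4b had both below, but which genes these were changed with the scaling. With loess 9 of 9 genes had means on both sides. With median centring 7 of 9 did, Cul1 and Skp2 being above 0 at every probe, and with processed signals 8 of 9 did, Rnf7 being below at both. Counted over pairs of probes and not over genes, 44.3% of 4388 pairs up to 2000 bases apart had opposite signs across the array. The share was 48.2% of 9768 pairs further apart and 20.7% of 324 overlapping pairs. The share of all genes with means on both sides was not computed. Counted over probes, 11 of the 21 partner probes were above 0 and 10 below, with a median of 0.01, where 44.8% of all probes were above 0. With the mean over all probes of each gene, 6 of the 9 partners were above 0.

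At their brightest probes the partners lay on different sides of 0 from array to array. On array 1, 7 of the 9 partners lay above 0 and the median log2 ratio was 0.09, and on array 2 all 9 did, with a median of 0.45. On array 3 only 3 did, with a median of -0.61. Over all 21 partner probes, 11, 14 and 11 were above 0 on arrays 1, 2 and 3, with medians of 0.02, 0.37 and 0.000651. Over all gene names the shares above 0 were 47.7%, 48.4% and 48% on the same arrays. Array 2 was also the one with the brightest p85α-/- channel, in which 93.8% of spots were well above background, and array 3 the one with the brightest WT channel, at 85.3%. The part of signal strength in these values was not tested. Without array 3, 7 of the 9 partners had a single sign on arrays 1 and 2. That asks less than a single sign on all 3 arrays, and its share over all gene names was not computed. Without array 2, 4 partners had a mean above 0.

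**Figure D3:**
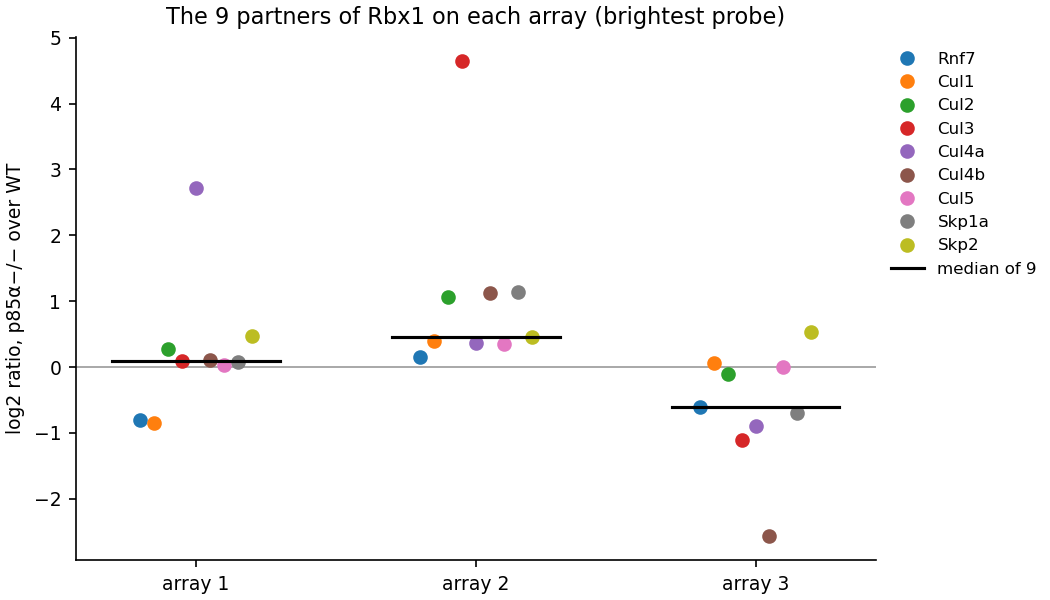
Log2 ratio of p85α-/- over WT (vertical axis) of the 9 partners at their brightest probes on each of the 3 arrays, with a line at the median. All 9 points are above 0 on array 2, whereas on array 3 the median is at -0.61 and 3 points are above 0.

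The probes with a pattern most like the brightest Rbx1 probe are listed as a description. No partner was among them, but the lower mean ratios of the partners given above already implied this. The comparison is therefore not a separate test of the partners. Likeness was the root mean square difference over the 6 channel levels, each probe centred on its own mean, among 31824 probes of other genes with signal above background on every array. The closest were 1110019J04Rik (0.23), D4Wsu53e, now named Rsrp1 (0.41), Arhgap6 (0.55), Bcas2, a splicing factor (0.59, at a probe that is not its brightest), and Psmb6, a catalytic proteasome subunit (0.60). Their mean log2 ratios were 4.34 ± 0.38, 4.18 ± 0.58, 3.63 ± 0.38, 4.22 ± 0.84 and 3.67 ± 0.91. These probes were picked for their likeness and carry no test. The nearest partner probe was that of Cul4a at 2.03, at percentile 8.25 of all tested probes, followed by Skp2 at 2.20, and the third Rbx1 probe was at 2.57.

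Mast cell markers were brighter in the p85α-/- channels. The summed normalized intensity of 14 mast cell markers was 44334 to 75847 in WT and 121062 to 196143 in p85α-/-, with 13 of 14 above 0 and 5 higher by the looser criterion, against 3.14% of all gene names, none of them with an adjusted p under 0.05 (limma, lowest 0.784). Of 9 neutrophil markers 6 were above 0 and 2 were higher by the looser criterion, with a median log2 ratio of 1.64 for the means but 1.33, 0.17 and 3.37 on arrays 1, 2 and 3. For the mast cell markers the median was 1.47, and 1.20, 1.62 and 1.33 on the arrays. The neutrophil sums were 9333 to 19887 in WT and 7405 to 234509 in p85α-/-, and all 9 were well above background on every p85α-/- array, 8 of 9 on every WT array. Sums of 8 macrophage markers were 6552 to 8190 in WT and 4857 to 5766 in p85α-/-, but 4 of the 8 had a mean log2 ratio above 0 and 4 below, with a median of -0.0052 and 0 past the looser criterion, and 7 of 8 were well above background on every array of either genotype. Basophil (3), erythroid (5) and lymphoid (6) sums overlapped between genotypes, and all of these markers except 1 erythroid gene in WT were well above background on every array. The part of cell makeup in the Rbx1 ratio was not tested, and more cells of a type cannot be told from more RNA per cell.

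The wider pathway outside the 10 genes was spread to both sides of 0. Of 167 genes at their brightest probe, 69 lay above 0 and the median log2 ratio was -0.10. The looser criterion was passed by 12 of them, 8 higher and 4 lower, or 7.19% of them, against 5.21% of all gene names (3.14% higher and 2.08% lower). The genotypes did not overlap at 15 of them, 7 higher and 8 lower, against 4.44% and 6.44% of all gene names. By limma 0 of the 167 had an adjusted p under 0.05, the lowest being 0.763. Ratios of the named genes below are means ± SD over 3 arrays on the log2 scale.

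Genes that switch the cullins on and off were mixed across the arrays, beside 43% of all gene names with a mean above 0. Of 10 NEDD8 conjugation genes 3 had a mean above 0 (median -0.37), but 5, 8 and 2 were above 0 on arrays 1, 2 and 3, with medians of -0.20, 0.53 and -1.04. Among them Dcun1d5, which helps to attach NEDD8 to cullins, was the highest and passed the looser criterion at 1.37 ± 0.36. Dcun1d4, of the same family, was the lowest at -1.89 ± 2.50, but at -0.48 without array 3. Of 9 COP9 signalosome genes 2 had a mean above 0 (median -0.35), and 5, 4 and 1 were above 0 on the arrays, with Cops5, the catalytic subunit, highest at 0.66 ± 0.77 (0.27 without array 1). Cops6, its partner subunit, passed the looser criterion. Its WT levels were 12.75, 12.10 and 12.27, its p85α-/- levels were 10.53, 8.67 and 9.88 without overlap, and its ratio was -2.68 ± 0.65 (limma adjusted p = 0.763). Over 11 other ways of processing, Dcun1d5 lost its call in 2 and Cops6 in 1. Of the 3 exchange factors and inhibitors 1 was above 0, from Cand2 at -1.31 ± 1.43 (-0.50 without array 2) to Cand1, which swaps receptors on Cul1, at 0.48 ± 3.88 (-0.69 without array 1 and -0.60 without array 3).

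Adaptors, relatives and E2 enzymes were mixed. All 3 further adaptors had means above 0, Tceb1 (elongin C) at 0.41 ± 0.08 without overlap, Tceb2 (elongin B) at 0.47 ± 1.13 (-0.15 without array 1) and Ddb1 at 0.38 ± 1.26 (-0.26 without array 2), and 0 passed the looser criterion. Of 4 other cullin and RING genes 2 were above 0, from Cul7 at -1.01 ± 1.62 (-0.45 without array 3) to Parc, a cullin also named Cul9, at 0.76 ± 1.41 (-0.048 without array 3). Of 9 E2 enzymes and RBR ligases 6 were above 0 (median 0.07). Among them 3 passed the looser criterion, Arih1, an RBR ligase that works on neddylated cullins, at 1.27 ± 0.75, the E2 enzyme Ube2d3 at 1.18 ± 0.62 and the E2 enzyme Ube2d2 at -1.45 ± 0.34 (limma adjusted p = 0.878 for Ube2d2). The close relatives Ube2d2 and Ube2d3 thus had opposite signs. Over 11 other ways of processing, Ube2d3 lost its call in 6, Ube2d2 in 4 and Arih1 in 3.

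The highest mean of the 167 pathway genes was that of an F-box receptor. Among 67 F-box genes 27 were above 0 (median -0.12), 3 were higher and 2 lower by the looser criterion. Fbxo38 was the highest at 3.35 ± 1.07, with WT levels of 7.91, 7.20 and 7.90 and p85α-/- levels of 11.70, 9.32 and 12.01. Fbxw7, the receptor for cyclin E and Myc, was at 2.80 ± 0.78, with WT levels of 7.56, 7.69 and 9.03 and p85α-/- levels between 10.59 and 11.09. Neither overlapped between the genotypes, and both had a limma adjusted p of 0.763. Fbxl10, a histone demethylase also named Kdm2b, was at 1.27 ± 0.66, Fbxl15 was lowest at -1.76 ± 0.96, and Fbxo32, the muscle atrophy F-box protein, was at -0.75 ± 0.28. Over 11 other ways of processing, Fbxo32 lost its call in 9, Fbxl10 in 4 and Fbxl15 in 3, while Fbxo38 and Fbxw7 lost it in 0. For all pathway genes these 11 left out the mean over probes and the methods' t-test. Only the brightest probe of each was read, so agreement with its other probes was not examined.

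Of 18 ASB genes, receptors for Cul5, 6 were above 0 (median -0.13), from Asb7 at -0.89 ± 1.80 (-0.12 without array 3) to Asb1 at 2.09 ± 1.5. Asb1 and Asb8, at 2.02 ± 0.41 (limma adjusted p = 0.763), were the 2 past the looser criterion. Asb1 lost that call in 4 of 11 other ways of processing and Asb8 in 1. Of 23 KLHL genes, receptors for Cul3, 7 were above 0 (median -0.06), and 0 passed it, with Klhl12 lowest at -1.88 ± 2.10 (-0.66 without array 1) and Klhl17 highest at 0.66 ± 0.46. Of 9 other receptors and cofactors 7 were above 0 (median 0.32) and 0 passed, from Ercc8 at -0.26 ± 0.56 to Cks1b, the cofactor of Skp2, at 2.04 ± 1.87 (1.09 without array 3). Of 12 substrates of these ligases 5 were above 0 (median -0.09) and 0 passed, from Ccnd1 (cyclin D1) at -0.87 ± 1.14 (-0.28 without array 1) to Cdkn1a (p21) at 1.14 ± 1.3 (0.42 without array 2). Some genes past no criterion here passed the looser one under another setting, namely Cops5 (1.46), Cks1b (3.09) and Cdkn1a (1.99) with median centring, and Cul7 (-1.93), Cand1 (2.72), Cks1b (2.95) and Asb7 (-1.88) without array 2.

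**Figure D4:**
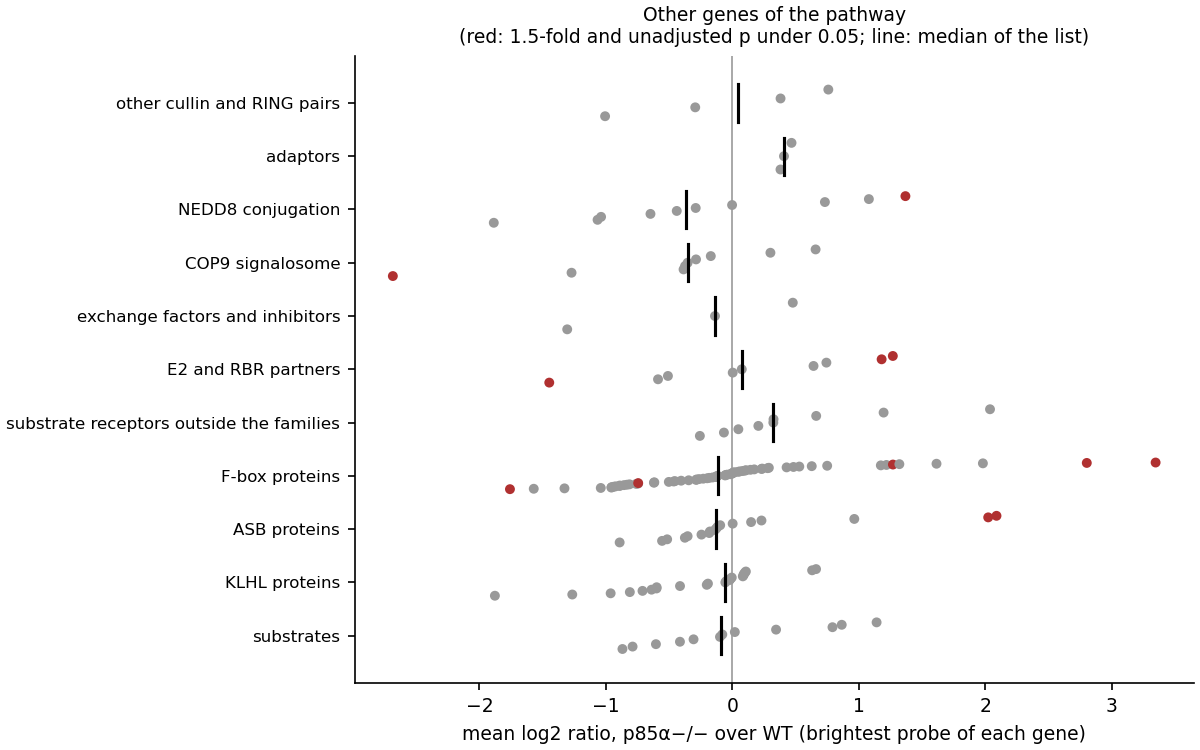
Mean log2 ratio of p85α-/- over WT (horizontal axis) of each of the 167 pathway genes at its brightest probe, by list, with a line at each list's median. Red points are the 12 genes past 1.5-fold with an unadjusted p under 0.05, from Cops6 at -2.68 to Fbxo38 at 3.35, and the medians lie between -0.37 and 0.41.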

How the data were processed

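Gene expression of SCF-stimulated MCps from 3 WT and 3 p85α-/- mice was measured on 3 Agilent arrays with 2 dyes. The deposited intensity values are mean spot signals and median local backgrounds, which the authors obtained with Agilent Feature Extraction 9.5.1.1 and did not normalize, and the deposited log10 ratio (Cy5 over Cy3) comes from the same software. The authors' methods state quantile normalization. The authors' value table carries the scanner's ratio on its own probe for 40929, 190 and 226 of 40929 single-spot probes on arrays 1, 2 and 3 (tolerance 1.5e-05), and was not used.

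Mean signals were corrected for background by normexp with an offset of 50 and then quantile normalized over 6 channels on the log2 scale (R 4.3.3, limma 3.58.1). Control and outlier spots were left out and spots of a probe averaged. Log2 ratios within each array were fitted with an intercept and tested with limma (eBayes, two-sided) with Benjamini-Hochberg adjustment over 41157 probes. The brightest probe by mean log2 intensity stood for a gene. No fold is given for a probe not well above background on any array of a group. Fixed rules named every member, Pik3r1, the highest, lowest and called genes of each pathway list, and the 5 most Rbx1-like probes. The members and lists were chosen with earlier results of these data known. In simulated ratios for 41157 probes, 200 of them changed by 3 on the log2 scale, the adjusted threshold found 100% of the changed probes with a small spread. At the spread seen on these arrays it found 0%, and 90.5% of the changed and 2231 unchanged probes passed the looser criterion. The arrays were the pairs, and same-numbered channels deviated together at r = 0.06, -0.06 and -0.02. Alternatives covered background, normalization, dim and outlier spots, pairing, single arrays, the methods' t-test and the mean over probes. The number of arrays limits the precision.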

Additional observations from a re-analysis of the deposited data

How the results depend on the processing

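Under the 13 alternatives that were tested over all probes 0 had an adjusted p under 0.05 (lowest 0.368), and under the 12 that give a value for Rbx1 it stayed above 0. Its log2 ratio was 4.04 with loess and Aquantile, 5.27 with median centring, which moved the median of all probes by 0.14, 4.64 without background subtraction, 4.76 with processed signals or the software's log ratio, 2.54 as the mean over its probes, and 4.23 to 4.47 with single arrays left out. Partners above 0 numbered 4 to 7. Partners with a single sign numbered 1, against 2, with processed signals, the software's log ratio or the mean over probes. With single arrays left out they numbered 3 to 7, but fewer arrays had to agree there, so these counts do not compare with the 2. The looser criterion took 1 partner probe, against 0, with median centring, Skp2 at 1.01. Over all probes it took 1829, but 1125 with the methods' t-test (819 when paired), 2692 with median centring and 1557 to 3165 with single arrays left out, 3165 without array 2. The share of these that were higher was 62.6%, but 91.1% with median centring, 72.3% with processed signals, 54.0% by that unpaired t-test and 47.5% without array 2. Without the replicate block, that is without pairing by array, 1809 probes passed, 0 of them partners, and the Rbx1 ratio was 4.32, but Dcun1d5, Ube2d2, Ube2d3, Asb1 and Asb8 lost their calls by the looser criterion (limma adjusted p = 0.886 for each). Directions turned for Cul1 (0.66 with median centring, 0.20 over all probes, -0.39 to 0.23 with single arrays left out), Cul3 (-0.51 to 2.37), Cul4a (-0.26 to 1.54), Cul4b (-1.23 to 0.62), Skp1a (-0.31 to 0.61) and Cul5 (-0.040 over all probes). Cul3 was also below 0, at -0.64, without dim probes. It was then read at its other probe (A_52_P47645), which had the same mean in the main fit. Of the pathway genes, Cul7 (0.33), Ercc8 (0.25) and Asb7 (0.027) turned with median centring. With single arrays left out, Tceb2 ran from -0.15 to 0.96, Cand1 from -0.69 (without array 1; -0.60 without array 3) to 2.72, Ddb1 from -0.26 to 0.997, Ercc8 from -0.44 to 0.062 and Parc from -0.048 to 1.28. The cause of the other changes was not tested. The authors' value table could not be run as an alternative, because for arrays 2 and 3 most rows do not carry the scanner's ratio of their probe.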
